A study of Homo sapiens with 6 samples.

Results

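The 41 genes described here encode proteins of the nucleolus that make ribosomes, and each was found by its symbol in a deposited table of 57150 genes, with 1 row per symbol. The list follows the functions of the genes. The table gives FPKM, a fragment count scaled for the length of the transcript and the size of the library, for polyadenylated RNA of H358 cells. H358 is an epithelial line of human origin, derived from a non-small-cell tumour of the lung. The 3 libraries with RBM47 knockdown came from H358 cells given lentiviral hairpins against RBM47, which encodes a protein that binds RNA, and the 3 libraries with control knockdown came from H358 cells given a control knockdown. Both groups thus shared the line, and the design calls the libraries biological triplicates. The hairpins and the control construct are not named in the sources used here, so that results of 1 hairpin and of several cannot be told apart.

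Ribosome assembly begins in the nucleolus, where RNA polymerase I transcribes a long precursor RNA. Small nucleolar ribonucleoproteins (snoRNPs) modify it by guide RNAs, and sets of assembly factors fold and cut it into the small (40S) and large (60S) subunits. Many of these genes are known as targets of the transcription factor MYC, and the pathway is known to be active in growing tumour cells. The RNA polymerase I transcripts themselves were not analysed here.

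RBM47 was at 12.0, 13.4 and 13.5 FPKM in the RBM47 knockdown libraries, against 85.2, 92.4 and 87.9 FPKM in the control libraries (log2 fold change of -2.68 in limma, adjusted p = 2.04e-06). Total FPKM ran from 651951 to 673552 over the 6 libraries. The fragment depth is unknown. Relative depth was estimated from genes alone in their locus and under 0.3 FPKM in each library, as the most frequent ratio of nonzero values. With RBM47 knockdown replicate 1 set to 1, it was 1.02 and 1.04 for knockdown replicates 2 and 3. It was 1.11, 1.09 and 1.16 in the control libraries, and 24.6% to 26.8% of these genes lay at the ratio. By this estimate, which is not a measured depth, each control library was deeper. The 6 epithelial markers EPCAM, CDH1, KRT7, KRT8, KRT18 and KRT19 summed to 3032 to 3107 FPKM in the knockdown and 3627 to 3889 FPKM in the control libraries, and 5 of them fell (limma, adjusted p up to 0.0193), while EPCAM stood at -0.12 on the log2 scale (limma, adjusted p = 0.114). Of 10 markers of leukocytes, fibroblasts and endothelium 9 had a row, 7 lay at a mean of at most 0.200 FPKM and none was at 0 in all 6 libraries. CD68 and COL1A1 accounted for nearly the whole of their sum, which was 34.4 to 44.5 FPKM in the knockdown and 45.0 to 49.7 FPKM in the control libraries. The part of these shifts in the results was not tested. All 6 libraries came from the H358 line, and in bulk RNA a change in every cell and a change in some cells cannot be told apart.

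The nucleolar ribosome biogenesis genes stayed close to their control level when RBM47 was lowered. Of the 41 genes, all of which passed the filter of a mean of at least 1 FPKM, 1 was lower, none was higher and 40 did not pass the threshold (limma on log2(FPKM + 1), Benjamini-Hochberg adjusted p under 0.05 over 14419 genes). That is 2.44% of the set, where 11.4% of all tested genes were called, 5.1% higher and 6.34% lower. The balance over all genes moved with the scaling, with 736 higher and 914 lower here and 919 higher and 782 lower when libraries were scaled to the same total. The gene that fell was RRP9. At an unadjusted p under 0.05 the count was 11 of 41, with 4 higher and 7 lower, beside 28.4% of all tested genes. The groups did not overlap in 15 of the 41 genes, 7 higher and 8 lower in the knockdown, and such separation was seen in 34% of all tested genes.

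The changes were small as well as mixed in sign. Log2 fold changes ran from -0.27 (RRP9) to 0.25 (FBL), with 25 positive, 16 negative and a median of 0.01, which was 0.07 without RBM47 knockdown replicate 2. Over all tested genes the median was 0.01 too. The median absolute change was 0.10 in the set and 0.13 over all tested genes. The 95% interval of the change lay within -0.5 and 0.5 in all 41 genes and within -0.3 and 0.3 in 28 of them, which holds for 75.9% and 38.9% of all tested genes. The set is more abundant than the tested genes at large, with a median level of 32.1 against 12.4 FPKM. At means of 5 FPKM or more, where all 41 genes lie, 15.8% of genes were called in a fit of their own, and RRP9 was again the single call of the set.

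**Figure D1:**
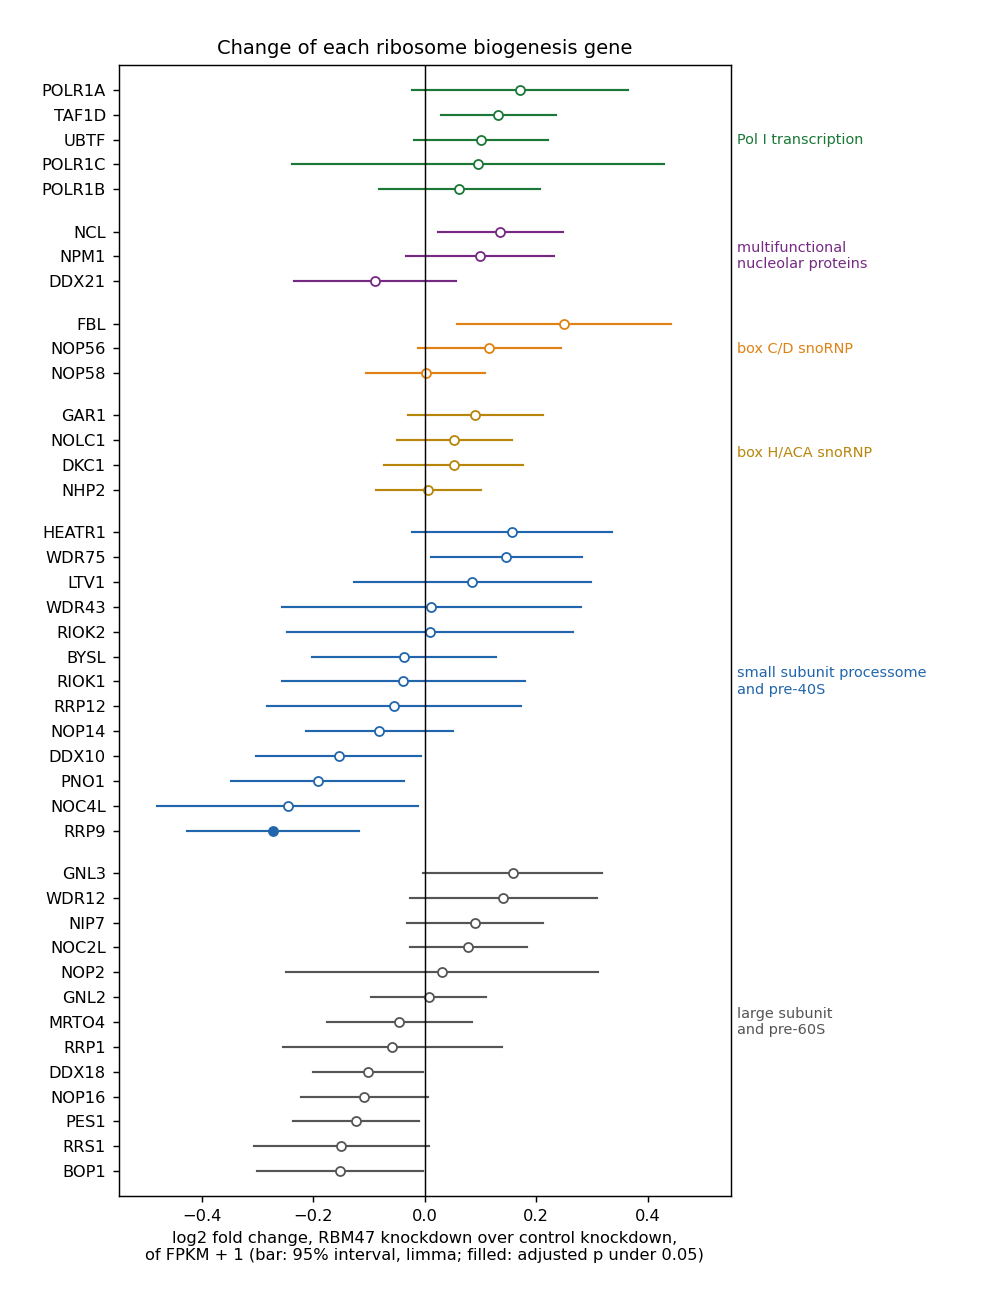
Log2 fold change of FPKM + 1, RBM47 knockdown over control knockdown, of the 41 ribosome biogenesis genes by role (points) with 95% intervals from limma (bars, 3 libraries per group). The values lie between -0.27 and 0.25, no interval goes beyond -0.5 or 0.5, and the filled point, RRP9, is the only one past the threshold.

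Levels spanned about 2 orders of magnitude. NPM1 and NCL stood far above the rest, and NOC4L, RRP9 and RRP12 stood lowest, at means of 7.50, 8.69 and 8.78 FPKM. Summed over the 41 genes, the level was 3208, 3228 and 3375 FPKM in the RBM47 knockdown libraries, against 3012, 3128 and 3142 FPKM in the control libraries. The sum was thus higher in each knockdown library, and NPM1 with NCL made up 43.2% to 45.7% of it in the knockdown and 42.1% to 44.2% in the control libraries. Over the 41 genes the knockdown libraries differed more among themselves, with a median coefficient of variation of 5.28% in the knockdown and 4.12% in the control libraries. The ribosomal protein genes showed the reverse, at 4.64% in the knockdown and 5.72% in the control libraries. RBM47 knockdown replicate 3 held the highest of the 3 knockdown values in 23 of the 41 genes, replicate 1 in 13 and replicate 2 in 5.

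**Figure D2:**
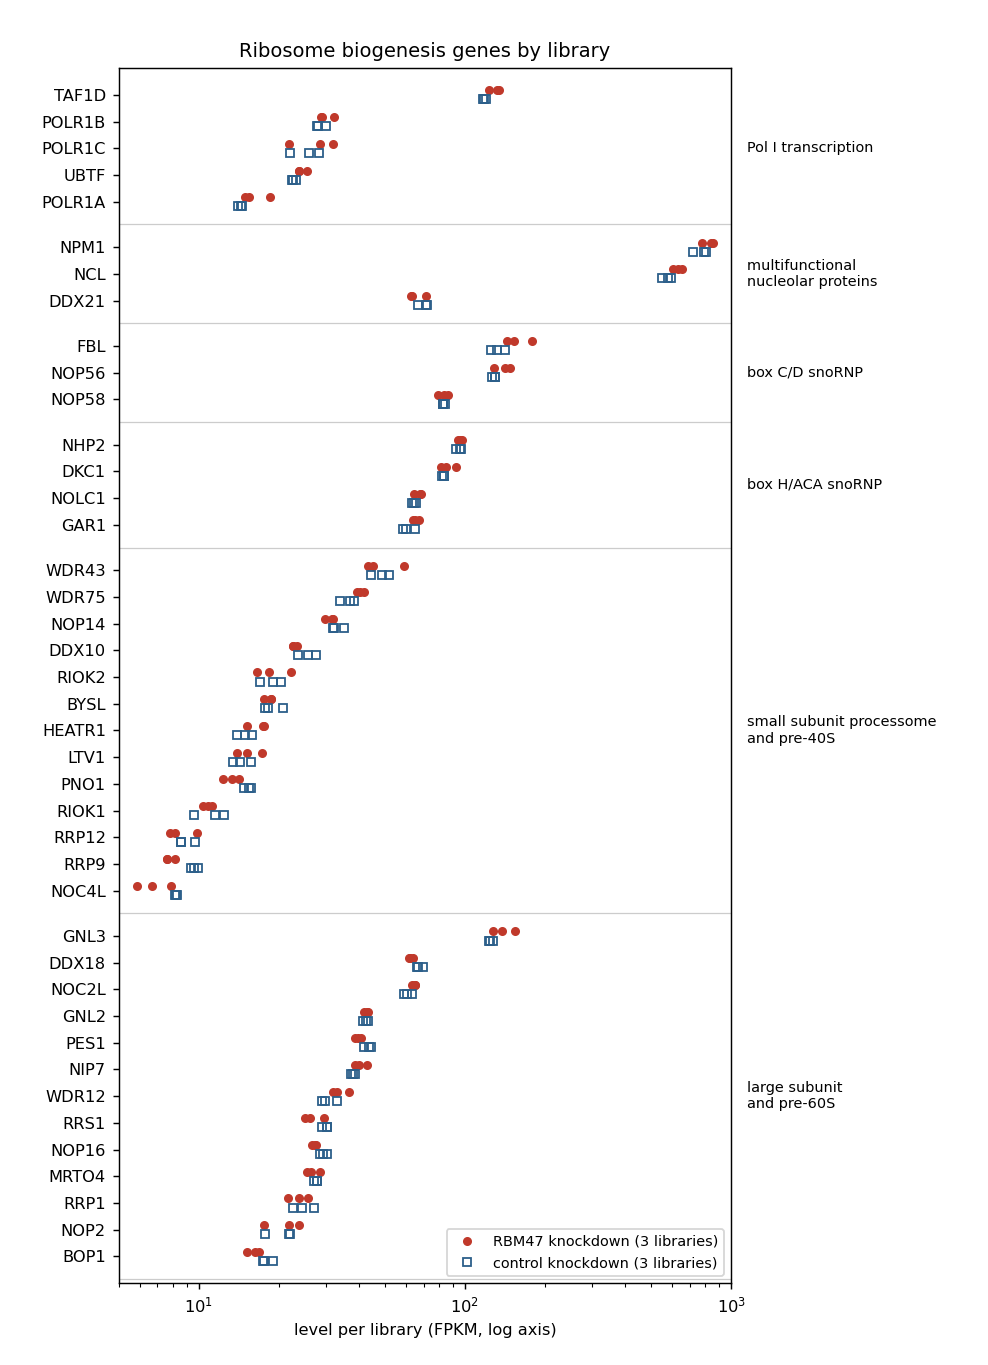
Level of each gene in each library (FPKM, log axis), with RBM47 knockdown libraries as filled circles and control libraries as open squares, ordered by role and mean level. The points of the groups lie close together in every row, from NOC4L at a mean of 7.50 FPKM to NPM1 at 798 FPKM.

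MYC itself fell in the same libraries. It was at 33.5, 32.8 and 31.8 FPKM in the RBM47 knockdown libraries, against 49.2, 44.1 and 45.5 FPKM in the control libraries, which do not overlap (log2 fold change -0.49 with an SE of 0.06, limma adjusted p = 0.00301). The call held in each setting tried, with log2 fold changes of -0.52 to -0.44. The letters CACGTG, known as the E-box that MYC with its partner MAX binds, were searched in RefSeq promoter windows (GRCh38.p14, 250 bases before to 50 after the start site, a motif that reads the same on both strands). Windows were found by symbol for 35 of the 41 genes, and 14 of the 35 (40%) held it. The share was 28.8% of 104 other ribosome biogenesis genes, 6.35% of 63 ribosomal protein genes, 12.6% of 9275 tested genes with a window and 8.77% of all 27305 symbols with a window. All 14 matches lay close to the start site, between 31 bases before it and 36 bases after it, whereas 37.0% of the matches over all windows lay within 50 bases. Of these, 6 follow, chosen after their values were seen, 3 of genes with a negative and 3 of genes with a positive log2 fold change. Only RRP9 among these genes passed the threshold, and the limma adjusted p of the others was 0.0957 to 0.298. The letters CACGTG are in capitals, and each stretch is read 5′ to 3′ on the gene's strand.
RRP9: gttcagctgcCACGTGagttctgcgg
PNO1: tgcagctgcgCACGTGtttcagccgg
PES1: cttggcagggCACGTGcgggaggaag
FBL: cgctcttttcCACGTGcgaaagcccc
GNL3: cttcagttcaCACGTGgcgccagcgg
GAR1: gccagaggggCACGTGgcgccggtga
These lie at chr3:51941894-51941919 (minus strand), chr2:68157887-68157912 (plus), chr22:30591882-30591907 (minus), chr19:39846358-39846383 (minus), chr3:52686028-52686053 (plus) and chr4:109815783-109815808 (plus), in the order printed. The motif starts 5 bases before the start site in RRP9 and at base 7 of the transcript in FBL and GNL3. Genes of the set with the motif had a median log2 fold change of -0.02 (7 of 14 positive, from -0.27 to 0.25), and the 21 with a window but no match had 0.09 (16 positive, from -0.25 to 0.17). A match describes letters and is no sign of binding, and the part of MYC in these values was not tested.

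The genes of RNA polymerase I transcription had positive log2 fold changes in 5 of 5 cases, none past the threshold, where 51.2% of all tested genes were positive. Further genes of this step, among the other ribosome biogenesis genes, went both ways, none past the threshold. TAF1D, a subunit of the selectivity factor that places the polymerase on ribosomal DNA, was at 134, 124 and 132 FPKM in the RBM47 knockdown libraries, against 118, 119.7 and 117 FPKM in the control libraries. Its groups do not overlap (log2 fold change 0.13 with an SE of 0.04, limma adjusted p = 0.0993). With quantile normalization its limma adjusted p was 0.0343. In every other setting tried it missed the threshold, at 0.0626 to 0.236. POLR1A, the largest subunit of the enzyme, was at 14.9, 15.5 and 18.5 FPKM in the RBM47 knockdown libraries, against 14.4, 14.0 and 14.5 FPKM in the control libraries, with knockdown replicate 3 standing above the other knockdown libraries (log2 fold change 0.17, 95% interval -0.02 to 0.36). UBTF, the upstream binding factor that keeps ribosomal genes open, was at 23.9, 23.9 and 25.5 FPKM in the RBM47 knockdown libraries, against 22.6, 23.1 and 22.3 FPKM in the control libraries, also without overlap (log2 fold change 0.10, 95% interval -0.02 to 0.22). POLR1B, the second large subunit, was at 28.9, 28.9 and 32.2 FPKM in the RBM47 knockdown libraries, against 27.9, 28.1 and 30.2 FPKM in the control libraries, and these overlap (log2 fold change 0.06, 95% interval -0.08 to 0.21). POLR1C, which RNA polymerases I and III share, was the most scattered of the 5, at 32.1, 21.8 and 28.6 FPKM in the RBM47 knockdown libraries, against 22.0, 26.1 and 28.4 FPKM in the control libraries. Its interval was the widest of the 5 (-0.24 to 0.43), and its value changed sign without RBM47 knockdown replicate 1 or control replicate 1 and with array weights.

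The most abundant genes of the set encode multifunctional nucleolar proteins. NPM1, nucleophosmin, a chaperone that forms the outer layer of the nucleolus, was at 781, 843 and 853 FPKM in the RBM47 knockdown libraries, against 720.0, 788 and 805 FPKM in the control libraries. The groups overlap (log2 fold change 0.10, 95% interval -0.03 to 0.23). NCL, nucleolin, which binds the precursor RNA, was at 605, 634 and 652 FPKM in the RBM47 knockdown libraries, against 548, 595 and 578 FPKM in the control libraries, and here each knockdown value lies above each control value (log2 fold change 0.14 with an SE of 0.05, limma adjusted p = 0.114). DDX21, an RNA helicase that works with polymerase I and with snoRNAs, was at 63.3, 63.0 and 71.6 FPKM in the RBM47 knockdown libraries, against 71.6, 72.1 and 66.7 FPKM in the control libraries. Its highest knockdown value, in replicate 3, lies within the control range (log2 fold change -0.09, 95% interval -0.24 to 0.06).

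Among the box C/D snoRNP proteins, which carry out 2′-O-methylation of ribosomal RNA, FBL had the highest log2 fold change of the whole set. FBL, fibrillarin, the methyltransferase (chromosome 19, 40325098 to 40337054, hg19, alone in its locus), was at 179, 152 and 144 FPKM in the RBM47 knockdown libraries, against 125, 131 and 141 FPKM in the control libraries. On average it reached 158 ± 17.9 FPKM in the knockdown and 133 ± 7.94 FPKM in the control libraries (SD, n = 3 each). The groups lie apart, but the lowest knockdown value exceeds the highest control value by a few FPKM and the adjusted p missed the threshold (log2 fold change 0.25 with an SE of 0.08, limma adjusted p = 0.0957, exact two-sided permutation p = 0.1, the smallest that 3 against 3 allow). NOP56 and NOP58 are the paired core proteins that hold the guide RNA. NOP56 was at 141, 129 and 148 FPKM in the RBM47 knockdown libraries, against 129.7, 129 and 126 FPKM in the control libraries, with knockdown replicate 2 inside the control range (log2 fold change 0.12, 95% interval -0.01 to 0.24). NOP58 was at 83.6, 79.4 and 86.7 FPKM in the RBM47 knockdown libraries, against 82.4, 84.0 and 82.9 FPKM in the control libraries, and the control values lie within the knockdown range (log2 fold change 0.00, 95% interval -0.10 to 0.11).

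The box H/ACA snoRNP genes, whose products turn uridine into pseudouridine, had intervals within -0.3 and 0.3 and no separation between groups. DKC1, dyskerin, the pseudouridine synthase, was at 81.3, 84.7 and 92.3 FPKM in the RBM47 knockdown libraries, against 83.4, 82.0 and 83.2 FPKM in the control libraries (log2 fold change 0.05, 95% interval -0.07 to 0.18). NHP2, a core protein of the particle, was at 97.3, 95.5 and 93.9 FPKM in the RBM47 knockdown libraries, against 92.8, 95.7 and 97.1 FPKM in the control libraries, a difference near 0 (log2 fold change 0.01, 95% interval -0.09 to 0.10). GAR1, which helps release the modified RNA, was at 63.7, 64.7 and 67.2 FPKM in the RBM47 knockdown libraries, against 60.2, 58.5 and 64.9 FPKM in the control libraries (log2 fold change 0.09, 95% interval -0.03 to 0.21). NOLC1, the chaperone Nopp140 that moves these particles, was at 67.9, 64.5 and 68.5 FPKM in the RBM47 knockdown libraries, against 64.6, 65.8 and 63.2 FPKM in the control libraries (log2 fold change 0.05, 95% interval -0.05 to 0.16). None of the 4 had an unadjusted limma p under 0.05, which 28.4% of all tested genes had.

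The small-subunit genes held the only call. RRP9, which binds the U3 snoRNA of the small-subunit processome (chromosome 3, 51967446 to 51975957, hg19, alone in its locus), was at 7.58, 8.16 and 7.59 FPKM in the RBM47 knockdown libraries, against 9.91, 9.34 and 9.57 FPKM in the control libraries. On average it reached 7.78 ± 0.332 FPKM in the knockdown and 9.61 ± 0.284 FPKM in the control libraries (SD, n = 3 each), a knockdown level at 81.0% of control. Each knockdown value lies below each control value (log2 fold change -0.27 with an SE of 0.07, limma adjusted p = 0.0381, 95% interval -0.43 to -0.12, exact two-sided permutation p = 0.1). The call was lost without any 1 of the 6 libraries, where the adjusted p was 0.0744 to 0.108 at log2 fold changes of -0.30 to -0.25. It was also lost with no filter (0.0711) and with each library scaled to the same total (0.0569).

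A further 4 small-subunit genes had an unadjusted limma p under 0.05 without passing the adjustment. With RRP9 that is 5 of 13, beside 28.4% of all tested genes. NOC4L, whose yeast counterpart works as a partner of Nop14, was at 6.68, 7.88 and 5.84 FPKM in the RBM47 knockdown libraries, against 8.28, 8.20 and 8.13 FPKM in the control libraries, and these do not overlap (log2 fold change -0.25 with an SE of 0.10, limma adjusted p = 0.158). PNO1, which guides the last cut of the small-subunit RNA, was at 12.3, 13.3 and 14.2 FPKM in the RBM47 knockdown libraries, against 15.7, 15.4 and 14.8 FPKM in the control libraries, also without overlap (log2 fold change -0.19 with an SE of 0.07, limma adjusted p = 0.108). DDX10, an RNA helicase, was at 23.4, 22.7 and 22.7 FPKM in the RBM47 knockdown libraries, against 25.8, 23.7 and 27.5 FPKM in the control libraries, each knockdown value below each control value (log2 fold change -0.15 with an SE of 0.06, limma adjusted p = 0.161). WDR75 pointed the other way. It belongs, as WDR43 and HEATR1 do, to the proteins that bind the precursor first, and was at 41.6, 39.4 and 40.3 FPKM in the RBM47 knockdown libraries, against 38.4, 33.9 and 37.1 FPKM in the control libraries (log2 fold change 0.15 with an SE of 0.06, limma adjusted p = 0.15).

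The remaining 8 small-subunit genes overlapped between the groups, with log2 fold changes from -0.08 to 0.16. HEATR1, one of the early-binding proteins, was at 17.6, 15.2 and 17.4 FPKM in the RBM47 knockdown libraries, against 15.8, 14.9 and 13.9 FPKM in the control libraries (log2 fold change 0.16, 95% interval -0.02 to 0.34). NOP14, a processome protein, was at 31.9, 29.9 and 31.7 FPKM in the RBM47 knockdown libraries, against 35.1, 31.8 and 32.2 FPKM in the control libraries (log2 fold change -0.08, 95% interval -0.21 to 0.05). WDR43 and RIOK2 each had a knockdown replicate 3 that stood above the other knockdown libraries. WDR43 was at 45.1, 43.3 and 59.0 FPKM in the RBM47 knockdown libraries, against 48.9, 44.4 and 51.8 FPKM in the control libraries, and without RBM47 knockdown replicate 3 its log2 fold change was -0.12 in place of 0.01. RIOK2, a kinase of late small-subunit maturation, was at 18.3, 16.5 and 22.2 FPKM in the RBM47 knockdown libraries, against 17.0, 20.4 and 19.0 FPKM in the control libraries, and without the same library its value was -0.10 in place of 0.01. RIOK1, the related kinase, was at 10.4, 10.9 and 11.2 FPKM in the RBM47 knockdown libraries, against 9.63, 12.5 and 11.5 FPKM in the control libraries (log2 fold change -0.04, 95% interval -0.26 to 0.18). BYSL and RRP12, factors carried with the pre-40S particle toward export, had log2 fold changes of -0.04 and -0.05, at mean levels of 18.6 and 8.78 FPKM. LTV1, another pre-40S factor, was at 15.2, 13.9 and 17.3 FPKM in the RBM47 knockdown libraries, against 15.7, 13.4 and 14.3 FPKM in the control libraries (log2 fold change 0.09, 95% interval -0.13 to 0.30).

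The 13 large-subunit genes had no call. An unadjusted limma p under 0.05 was seen in 3 of them, DDX18, PES1 and BOP1, each lower in the knockdown. Over all tested genes 28.4% had such a p in either direction. PES1, BOP1 and WDR12 form the PeBoW complex, which is needed for processing of the large-subunit RNA. PES1 was at 40.8, 39.6 and 38.6 FPKM in the RBM47 knockdown libraries, against 41.7, 44.5 and 43.7 FPKM in the control libraries, which do not overlap (log2 fold change -0.12 with an SE of 0.05, limma adjusted p = 0.143). BOP1 was at 16.9, 15.2 and 16.3 FPKM in the RBM47 knockdown libraries, against 19.1, 17.6 and 17.5 FPKM in the control libraries, again without overlap (log2 fold change -0.15 with an SE of 0.06, limma adjusted p = 0.166). WDR12 lay on the other side, at 36.6, 33.0 and 32.1 FPKM in the RBM47 knockdown libraries, against 29.8, 29.1 and 33.2 FPKM in the control libraries, with control replicate 3 inside the knockdown range (log2 fold change 0.14 with an SE of 0.07, limma adjusted p = 0.245). DDX18, an RNA helicase, was at 62.4, 61.8 and 64.0 FPKM in the RBM47 knockdown libraries, against 69.4, 66.5 and 66.3 FPKM in the control libraries, each knockdown value below each control value (log2 fold change -0.10 with an SE of 0.04, limma adjusted p = 0.165).

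Other pre-60S genes went both ways. GNL3, nucleostemin, a nucleolar GTPase, was at 128, 138 and 155 FPKM in the RBM47 knockdown libraries, against 124, 128 and 123 FPKM in the control libraries, with knockdown replicate 1 inside the control range (log2 fold change 0.16, 95% interval -0.00258 to 0.32). GNL2, a related GTPase, was at 42.9, 43.1 and 41.6 FPKM in the RBM47 knockdown libraries, against 43.2, 42.4 and 41.5 FPKM in the control libraries, a difference near 0 (log2 fold change 0.01, 95% interval -0.10 to 0.11). NOP16, a nucleolar pre-60S protein, was at 27.5, 27.3 and 26.7 FPKM in the RBM47 knockdown libraries, against 30.3, 28.4 and 29.3 FPKM in the control libraries, each knockdown value below each control value (log2 fold change -0.11, 95% interval -0.22 to 0.01). RRS1, which helps bring in the 5S RNA particle, was at 25.1, 26.1 and 29.5 FPKM in the RBM47 knockdown libraries, against 28.9, 30.2 and 30.4 FPKM in the control libraries, and knockdown replicate 3 lies in the control range (log2 fold change -0.15, 95% interval -0.31 to 0.01). NIP7, another pre-60S factor, was at 40.2, 38.6 and 42.8 FPKM in the RBM47 knockdown libraries, against 37.3, 38.5 and 38.1 FPKM in the control libraries, each knockdown value above each control value (log2 fold change 0.09 with an SE of 0.05, limma adjusted p = 0.304). NOC2L, whose yeast counterpart accompanies pre-60S particles out of the nucleolus, was at 63.1, 65.1 and 65.1 FPKM in the RBM47 knockdown libraries, against 63.3, 59.0 and 60.6 FPKM in the control libraries, with knockdown replicate 1 inside the control range (log2 fold change 0.08, 95% interval -0.03 to 0.18).

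NOP2, a methyltransferase of the large-subunit RNA, varied as much within the groups as between them. It was at 21.8, 17.6 and 23.7 FPKM in the RBM47 knockdown libraries, against 22.0, 17.8 and 21.8 FPKM in the control libraries, with replicate 2 the lowest of each group (log2 fold change 0.03, 95% interval -0.25 to 0.31). MRTO4, a counterpart of the ribosomal stalk protein, was at 28.5, 25.4 and 26.3 FPKM in the RBM47 knockdown libraries, against 27.2, 27.9 and 27.8 FPKM in the control libraries (log2 fold change -0.05, 95% interval -0.18 to 0.08). RRP1, a pre-60S factor, was at 21.6, 23.9 and 25.7 FPKM in the RBM47 knockdown libraries, against 24.5, 27.1 and 22.7 FPKM in the control libraries (log2 fold change -0.06, 95% interval -0.26 to 0.14). The groups overlap in all 3.

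Ratios between subunits of 4 complexes were compared within each library, which takes out any scaling of the library as a whole. Of 12 pairs, 3 did not overlap between the groups, where 34% of single tested genes lay apart and no share over other pairs was computed. The log2 ratio of NOP56 to NOP58 was 0.75, 0.70 and 0.77 in the knockdown libraries, against 0.65, 0.62 and 0.60 in the control libraries, a difference of 0.11. That of PES1 to WDR12 was 0.15, 0.26 and 0.27 in the knockdown libraries, against 0.49, 0.62 and 0.40 in the control libraries, a difference of -0.27. That of BOP1 to WDR12 was -1.12, -1.12 and -0.98 in the knockdown libraries, against -0.64, -0.73 and -0.93 in the control libraries, and its difference of -0.31 was the largest of the 12. WDR12 thus stood higher relative to both of its PeBoW partners in each knockdown library, while PES1 to BOP1 differed by 0.03 with overlap. The ratios to WDR12 use the same WDR12 values, so they are not separate observations. No pair passed the exact two-sided permutation test (lowest p = 0.1, and 0.4 when adjusted over the 12 pairs), which cannot go below 0.1 here. The box H/ACA pairs differed by -0.09 to 0.05 and the RNA polymerase I pairs by -0.03 to 0.12, all with overlap.

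**Figure D3:**
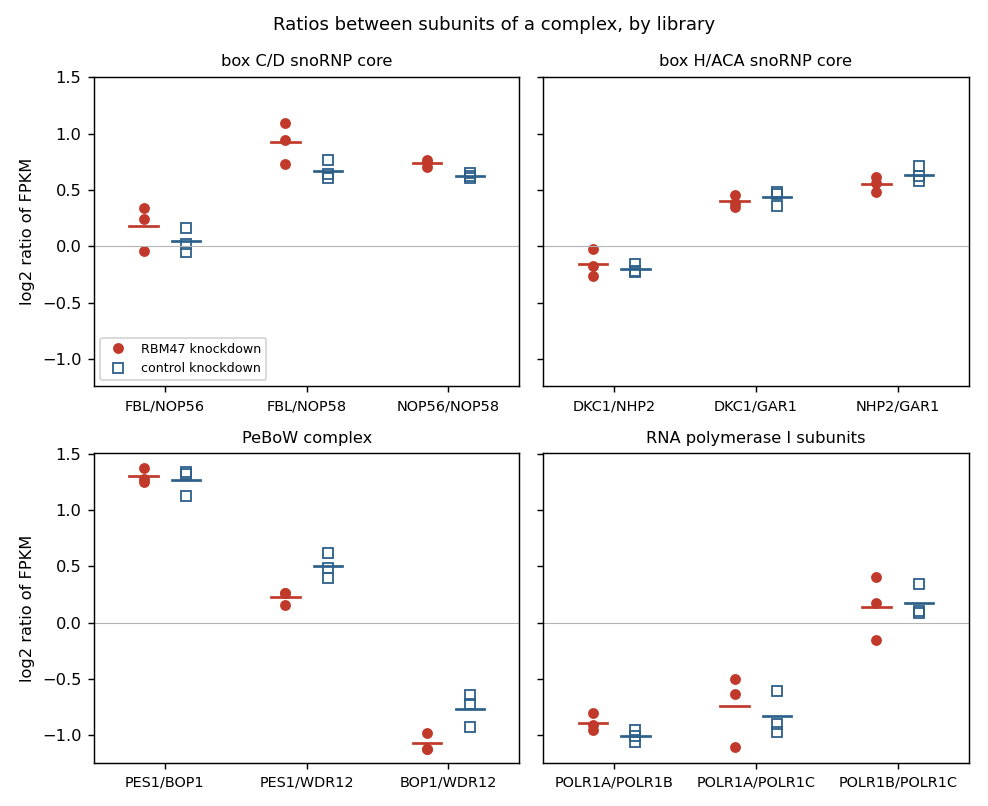
Log2 ratio of FPKM between subunits of 4 complexes in each library, with RBM47 knockdown libraries as filled circles, control libraries as open squares and group means as short lines. The ratios of PES1 and BOP1 to WDR12 lie lower in the knockdown by 0.27 and 0.31, and that of NOP56 to NOP58 lies higher by 0.11.

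Some members lie in loci that they share with other genes in the table, and their values are then less certain, because how shared reads were assigned is not known. Of the 41 genes 13 are alone in their locus and 28 are not. Introns of such genes are known to carry snoRNAs, and 8 of the 41 share their locus with 33 rows named as snoRNA or small Cajal body RNA. Of the 33 rows 32 were listed at 0 in all 6 libraries. The libraries are of polyadenylated RNA, so a value of 0 there does not show that these small RNAs were absent or unchanged. The exception was SCARNA9 in the TAF1D locus, at 114, 122 and 132 FPKM in the knockdown libraries, against 105, 111 and 95.8 FPKM in the control libraries. TAF1D and SCARNA9 thus both had each knockdown value above each control value, and how reads were divided between them is not known.

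Other genes of ribosome assembly gave few calls. Of 123 further factors (among them SSU processome, exosome, pre-60S and export genes, chosen by function), 5 were lower, 1 was higher and 117 did not pass the threshold, 4.88% of the list against 11.4% of all tested genes. NOL7, a nucleolar protein, was at 29.0, 27.6 and 25.5 FPKM in the RBM47 knockdown libraries, against 35.8, 34.9 and 35.9 FPKM in the control libraries and had the largest fall (log2 fold change -0.37 with an SE of 0.06, limma adjusted p = 0.00921). RIOK3, a kinase related to RIOK1 and RIOK2, was at 66.0, 56.8 and 63.5 FPKM in the RBM47 knockdown libraries, against 82.5, 75.8 and 77.5 FPKM in the control libraries (log2 fold change -0.34 with an SE of 0.07, limma adjusted p = 0.0187). MAK16, a pre-60S factor, was at 24.4, 23.9 and 24.5 FPKM in the RBM47 knockdown libraries, against 31.6, 31.2 and 28.8 FPKM in the control libraries (log2 fold change -0.32 with an SE of 0.05, limma adjusted p = 0.0114). IMP4, a U3 particle protein as RRP9 is, was at 44.0, 42.6 and 39.1 FPKM in the RBM47 knockdown libraries, against 50.4, 52.0 and 48.9 FPKM in the control libraries (log2 fold change -0.26 with an SE of 0.06, limma adjusted p = 0.0253). NOP10, the fourth core protein of the box H/ACA snoRNP beside DKC1, NHP2 and GAR1, was at 154, 161 and 154 FPKM in the RBM47 knockdown libraries, against 170.2, 176 and 181 FPKM in the control libraries (log2 fold change -0.17 with an SE of 0.04, limma adjusted p = 0.0434). BMS1, a GTPase of the small-subunit processome, was the one that rose, at 25.1, 24.6 and 25.3 FPKM in the RBM47 knockdown libraries, against 22.1, 21.5 and 21.0 FPKM in the control libraries (log2 fold change 0.21 with an SE of 0.05, limma adjusted p = 0.0349). The 3 values of each group lie apart in these 6 genes, which were picked by their calls. Such separation was seen in 42 of the 123 genes and in 34% of all tested genes. The calls of IMP4, NOP10, RIOK3 and BMS1 were each lost without 1 or more of the libraries, with adjusted p up to 0.0848, 0.141, 0.0588 and 0.119, and those of NOL7 and MAK16 held without any 1 library.

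The ribosomal protein genes, whose products the assembly factors handle, leaned to the positive side. Of 79 tested, 5 rose, none fell (none at an unadjusted p under 0.05 either) and 74 did not pass the threshold in limma, 6.33% of the list against 5.1% of all tested genes higher. Their median log2 fold change was 0.10, and 76 of the 79 were positive, where 51.2% of all tested genes were. The groups overlapped in 54 of the 79 and lay apart in 25, all higher in the knockdown. Over all tested genes 34% lay apart, 17.3% of them all being apart and higher. An unadjusted limma p under 0.05 was seen in 24 of the 79, all higher. Over all tested genes it was seen in 28.4%, higher and lower together, and the share of higher ones alone was not computed. Their summed level was 104168, 102533 and 96167 FPKM in the knockdown libraries, against 88408, 94634 and 98633 FPKM in the control libraries, and knockdown replicate 3 lies within the control range. Without control replicate 1 the median was 0.06 and 64 were positive. RPS24, a small-subunit protein, was at 2068, 2012 and 2041 FPKM in the RBM47 knockdown libraries, against 1641, 1768 and 1786 FPKM in the control libraries (log2 fold change 0.24 with an SE of 0.05, limma adjusted p = 0.0195). RPL7, RPSA, RPS27 and RPS4X rose by 0.23, 0.22, 0.21 and 0.20 on the log2 scale (limma, adjusted p = 0.0487, 0.036, 0.0392 and 0.0429). The count depends on the scaling and the fit, with 16 and 17 rises when libraries were scaled to the same total or by quantiles and none in limma without trend or with no filter. It was 0 without RBM47 knockdown replicates 1 or 2 or control replicate 2, and 1 or 2 without any other library. Ribosomal proteins have many processed pseudogenes, so their values are uncertain. RPL5 and RPL11, which with the 5S RNA bind and hold back the ubiquitin ligase MDM2 when assembly fails, had log2 fold changes of 0.11 and 0.12, and MDM2 had -0.07 (limma, adjusted p = 0.153, 0.137 and 0.575).

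**Figure D4:**
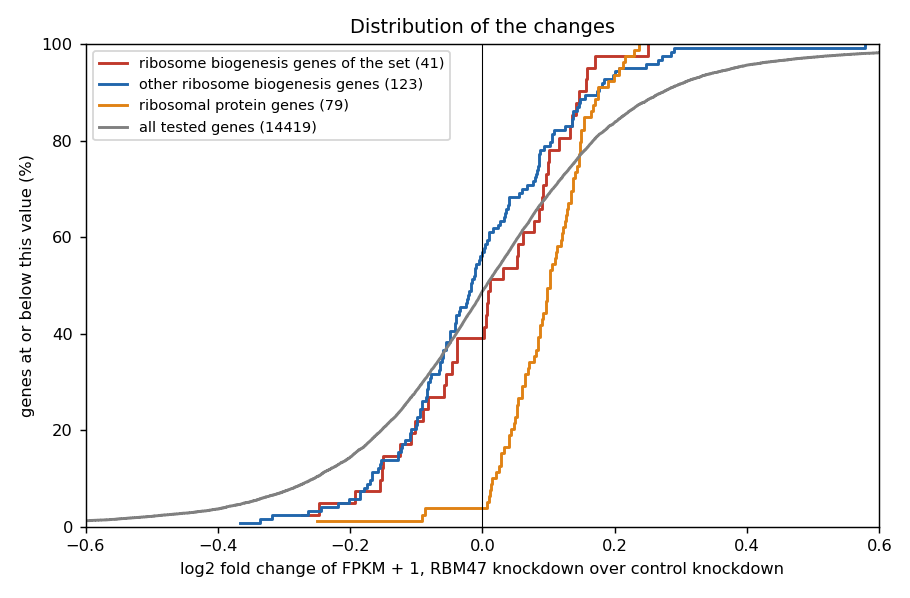
Share of genes (%) at or below each log2 fold change of FPKM + 1, RBM47 knockdown over control knockdown, for the 41 genes of the set, 123 other ribosome biogenesis genes, 79 ribosomal protein genes and 14419 tested genes. The set and the other biogenesis genes centre near 0 (medians 0.01 and -0.02), and the curve of the ribosomal protein genes lies to the right (median 0.10).

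**Figure D5:**
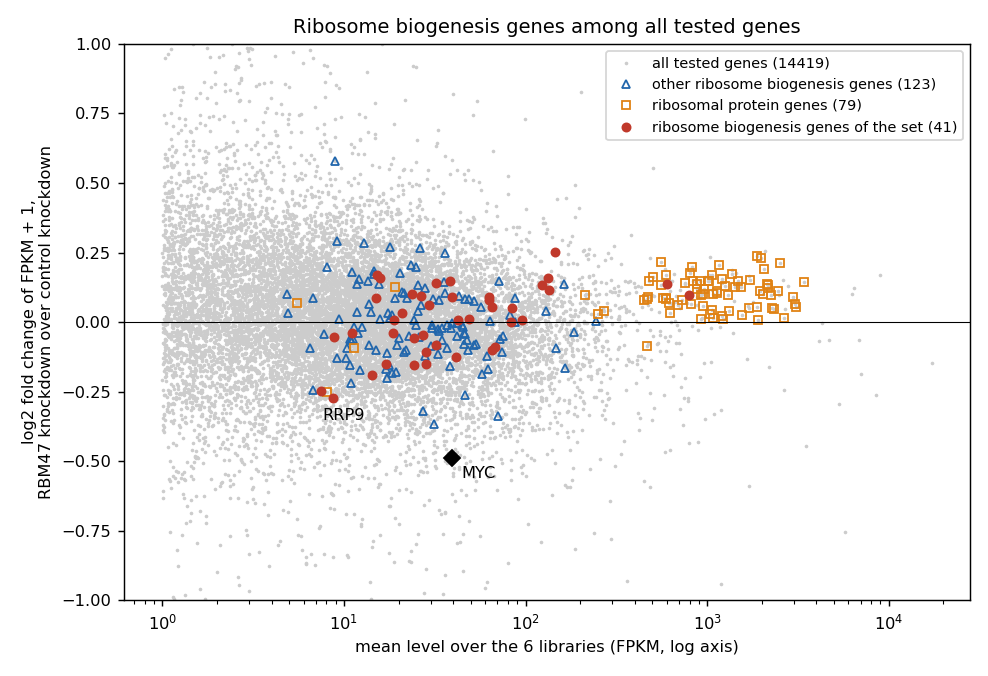
Log2 fold change of FPKM + 1 (RBM47 knockdown over control knockdown) against mean level over the 6 libraries (FPKM, log axis) for all tested genes, with the gene lists marked and 125 genes beyond the axis. RRP9 (-0.27) and the other genes of the set lie within the cloud of all genes, and MYC (-0.49) lies toward its lower edge.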

How the data were processed

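H358 RNA was extracted with TRIzol and made into libraries with a stranded mRNA kit, per the labels' protocols. TopHat 1.4.1, Cuffdiff 2.2.0 and hg19 are named in the submitters' processing notes, without roles or order. The deposited table holds FPKM per gene and library, computed by the authors. FPKM is relative to each library's fragments and keeps no depth, and no count test was run. Genes averaging 1 FPKM or more (14419 of 57150) were tested on log2(FPKM + 1) with limma 3.58.1 in R 4.3.3 (trend, two-sided, Benjamini-Hochberg adjustment over all tested genes). Fold changes on this scale understate those of low genes. Exact permutation tests on single values used scipy 1.17.1, and 3 libraries against 3 cannot give a p below 0.1. The fit was tested on simulated data. The 41 genes and the other lists were chosen with earlier results of these data known. The text names RBM47, all 41 genes, up to 6 called genes of each further pathway list, and MYC with RPL5, RPL11 and MDM2. A further gene of that list is not reported here. The 3 ribosomal protein genes and the single assembly factor among the other observations, and the 6 printed promoter windows, were chosen after their values were seen. Nothing beyond the word triplicates tells how separate the cultures were, so p-values measure the spread between these libraries. Alternatives were other pseudocounts, filters, scalings, fits and a replicate block, and leaving out each library.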

Additional observations from a re-analysis of the deposited data

How the results depend on the processing

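RBM47 kept its fall in every setting tried (-2.76 to -2.63 on the log2 scale). Over all genes 1650 calls became 916 with no filter and 679 to 1288 without 1 library. The count of called genes among the 41 was 0 with no filter, 0 with each library scaled to the same total, 2 with quantile normalization (RRP9 and TAF1D) and 0 to 0 without 1 library. Their median log2 fold change was 0.0529 with quantile normalization and 0.00402 to 0.0705 without 1 library. The 6 calls among other ribosome biogenesis genes became 3 with no filter, 3 without trend and 2 to 6 without 1 library. The 5 calls among ribosomal protein genes became 0 with no filter, 16 with the same total, 17 with quantile normalization, 0 without trend and 0 to 2 without 1 library. The cause of these shifts was not tested. Fits without 1 library have fewer samples, and the other settings used all 6 libraries.

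With array weights the sign changed for NOP58 (-0.0195), WDR43 (-0.0548), POLR1C (-0.000325), NOP2 (-0.0305), RIOK2 (-0.0666) and RRP12 (0.00955). Leaving out 1 library gave both signs for NHP2 (-0.0122 to 0.0201), NOP58 (-0.0277 to 0.0350), WDR43 (-0.124 to 0.0939), GNL2 (-0.00807 to 0.0216), POLR1C (-0.0206 to 0.247), RRP1 (-0.117 to 0.00741), NOP2 (-0.0622 to 0.149), RIOK2 (-0.102 to 0.0996), BYSL (-0.0808 to 0.0268), RIOK1 (-0.135 to 0.0360) and RRP12 (-0.148 to 0.00684). None of these genes was called. The other scalings turned no sign among the 41.

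With the replicate number as a block, 837 genes were called over all, 0 of the 41, 3 of the other biogenesis genes and 0 ribosomal protein genes, and the adjusted p of RRP9 was 0.106 (limma). Deviations of same-numbered libraries from their group means correlated at 0.02, -0.10 and 0.08, and not every library correlated best with its own number. The labels do not say whether same-numbered libraries were handled together. Correlations of deviations from means of 3 libraries cannot settle that. With 3 libraries per group and unknown fragment depth, a change much smaller than 0.3 on the log2 scale could often not be told from 0.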

Other observations

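Among the 123 other genes of ribosome assembly, 1 of the 117 that did not pass the threshold was chosen after its values were seen. EFTUD1, a GTPase that acts in the last steps of large-subunit maturation, was at 5.66, 23.7 and 5.88 FPKM in the RBM47 knockdown libraries, against 6.28, 5.74 and 5.95 FPKM in the control libraries. RBM47 knockdown replicate 2 alone stood high, and the limma adjusted p was 0.443 at a log2 fold change of 0.58.

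Among the 79 ribosomal protein genes, 3 had a negative log2 fold change, and none of them passed the threshold. FAU was at 476, 456 and 431 FPKM in the knockdown libraries, against 441, 490.1 and 517 FPKM in the control libraries, with overlap. RPS26 was at 9.33, 11.2 and 12.3 FPKM in the knockdown libraries, against 12.4, 11.7 and 11.0 FPKM in the control libraries. RPS28 was at 5.66, 7.67 and 8.30 FPKM in the knockdown libraries, against 11.8, 7.39 and 7.43 FPKM in the control libraries. RPS26 and RPS28 lay far below the median level of 1062 FPKM of this list.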
